A study of Saccharomyces cerevisiae with 16 samples.

Results

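The 5 genes described here are IMD2, IMD3 and IMD4, which code for IMP dehydrogenases, GUA1, which codes for GMP synthase, and AAH1, which codes for adenine deaminase. They are 5 of the 6648 genes in the deposited table of a phosphate starvation time course in budding yeast (Saccharomyces cerevisiae). They were chosen by name, with their values in these libraries already known, so their values are a description and carry no test. The study sequenced RNA from 16 samples, 1 library per time: 15 libraries of cells in medium without phosphate, taken every 15 min up to 225 min, and 1 library of cells in high phosphate medium, labelled 0 min. All 16 come from a BY4741 strain labelled pho84pr-YFP, delta-phm4, that is, with a YFP reporter behind the promoter of the phosphate transporter gene PHO84 and without PHM4, a subunit of the vacuolar polyphosphate polymerase also called VTC1. The genotype is common to all libraries, so the deletion itself is compared with nothing here, and the labels do not give the number of clones or cultures.

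Yeast makes GMP from IMP, the first complete purine nucleotide. IMP dehydrogenase oxidises IMP to XMP, the step that commits it to guanine nucleotides, and GMP synthase then aminates XMP to GMP, from which kinases make GDP and GTP. Imd3 and Imd4 are the IMP dehydrogenases of ordinary growth, whereas IMD2 is known for being switched on when GTP runs short. Adenine deaminase turns adenine into hypoxanthine, which can be salvaged to IMP, so Aah1 links adenine to the guanine branch. In growing yeast much of the GTP goes to the RNA polymerases and to translation.

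The genes lie on different chromosomes except for IMD4 and GUA1. In build R64, IMD2 (YHR216W) is at chrVIII:554396-555967 on the plus strand, IMD3 (YLR432W) at chrXII:1002557-1004128 on the plus strand and IMD4 (YML056C) at chrXIII:162194-164176 on the minus strand. GUA1 (YMR217W) is at chrXIII:701790-703367 and AAH1 (YNL141W) at chrXIV:359596-360639, both on the plus strand. IMD4 has an intron of 408 bases, which holds the small nucleolar RNA gene SNR54, and the other 4 genes have a single coding exon. The 3 IMD coding sequences are close copies: IMD2 and IMD3 were identical at 88.9% of aligned positions, IMD3 and IMD4 at 82.1%, and IMD2 and IMD4 at 79.0%.

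The following 60 bases of coding sequence show how alike the IMD genes are. They are coding bases 61 to 120 of IMD2 (chrVIII:554456-554515, plus strand) and IMD3 (chrXII:1002617-1002676, plus strand) and 64 to 123 of IMD4 (chrXIII:164054-164113, minus strand), read 5′ to 3′ along the gene, and capitals mark bases unlike IMD2.
IMD2: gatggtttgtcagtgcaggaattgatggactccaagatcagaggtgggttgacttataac
IMD3: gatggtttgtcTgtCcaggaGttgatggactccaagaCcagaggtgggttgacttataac
IMD4: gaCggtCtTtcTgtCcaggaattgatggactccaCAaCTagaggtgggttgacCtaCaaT
In this stretch IMD3 differs from IMD2 at 4 bases and IMD4 at 12. No 50-base window within it is the same in IMD2 and IMD3. The 50-base windows that IMD2 shares with IMD3 lie further on, within chrXII:1002857-1003932. Over the whole coding sequences, 33.7% of all 50-base windows of IMD2 also occur elsewhere in the genome, as do 16.6% of those of IMD3 and 7.01% of those of IMD4. Most of the shared IMD2 windows match chrI:227854-229274, the region of the IMD1 pseudogene, which is listed in none of the libraries. No 50-base window of GUA1 or AAH1 occurs elsewhere. Of the IMD3 windows, 8.01% occur in IMD2 and 7.03% in IMD4. The levels of IMD2 and IMD3 in particular, and to a lesser degree IMD4, therefore depend on how the authors assigned reads with several matches. That handling is not given in the sources used here.

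The promoters were read for short runs of letters, as a description. The genes were chosen with their levels known, so counts of matches are not separate support for those levels. GATGAG, the core of the PAC element found before many genes of ribosome biogenesis, was searched on both strands in the 300 bases before each start codon. It was present before IMD3, IMD4, GUA1 and AAH1 and absent before IMD2. The 60 bases around each match are shown 5′ to 3′ along the gene, with the match in capitals; CTCATC is GATGAG on the opposite strand. They lie at chrXII:1002429-1002488 (plus strand), chrXIII:164304-164363 (minus strand), chrXIII:701560-701619 (plus strand) and chrXIV:359409-359468 (plus strand).
IMD3: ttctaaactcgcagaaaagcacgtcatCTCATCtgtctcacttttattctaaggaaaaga
IMD4: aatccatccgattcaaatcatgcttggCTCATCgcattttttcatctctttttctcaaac
GUA1: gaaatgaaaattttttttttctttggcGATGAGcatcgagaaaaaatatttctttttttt
AAH1: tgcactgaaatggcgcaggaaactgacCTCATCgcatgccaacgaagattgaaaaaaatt
The match starts 101 bases before the start codon in IMD3, 160 in IMD4, 203 in GUA1 and 160 in AAH1. The same letters stood before 1148 of 6002 protein-coding genes (19.1%), 45 of 48 listed ribosome biogenesis genes and 12 of 42 other purine genes. A match is a description of letters and not of binding.

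Besides GATGAG, 4 other cores were searched in the same windows, on both strands. AAAATTTT, the core of the RRPE element, TGACTC, the core bound by Gcn4 and Bas1, and AGGGG, the stress response core, were each found before GUA1 and before none of the other 4 genes, against 9.41%, 7.76% and 22.2% of all genes. AAAATTTT stood before 41 of 48 listed ribosome biogenesis genes and 7 of 42 other purine genes. For TGACTC these numbers were 1 of 48 and 17 of 42, and for AGGGG 8 of 48 and 6 of 42. CACGTG, the core bound by the phosphate regulator Pho4, was found before none of the 5 and before 3.57% of all genes. With 500 bases searched, CACGTG stood 440 bases before the GUA1 start codon, and before 6.23% of all genes. AAAATTTT then stood 356 bases before that of IMD3 too, against 12.4% of all genes. GATGAG still stood before 4 of the 5, against 28.2%. In GUA1, AAAATTTT starts 224 and TGACTC 270 bases before the start codon, so neither overlaps GATGAG, which starts at 203. The IMD2 and IMD3 promoters share a stretch of 15 bases without a GATGAG match, shown here within 60 bases at chrVIII:554172-554231 and chrXII:1002309-1002368, both plus strand, with the 35 identical bases in capitals.
IMD2: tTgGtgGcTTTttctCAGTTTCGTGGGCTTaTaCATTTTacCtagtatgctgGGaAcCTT
IMD3: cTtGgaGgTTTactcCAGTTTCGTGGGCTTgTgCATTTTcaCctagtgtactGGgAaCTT

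The table gives each gene's level as log2 CPM, the log2 of reads per 1000000. Of the 16 libraries, 14 hold 603426 to 3437873 reads and list 4694 to 5475 genes. These and all other read numbers take a library's lowest listed value as 10 reads, an assumption on which they and their intervals depend. The libraries labelled 195 and 210 min stand apart, with 40984 and 45009 reads, 1122 and 1188 genes and lowest listed values of 244 and 222 CPM. They also gave 10.80 and 10.90 log2 CPM for VTC1, the gene labelled as deleted, against 6.67 to 7.51 in the 14 deeper libraries. VTC1 was thus listed in every library, and the state of the locus was not tested. Results are from the 14 deeper libraries, and values at 195 and 210 min are given apart. All 6 MATa marker genes, the mating type of BY4741, were listed, at a summed 2831 to 7015 CPM in the deeper starved libraries and 2111 CPM at 0 min; the summed MATalpha markers were at 24.8 to 72.4 CPM in starved libraries and 27.6 CPM at 0 min, with 1 of 4 never listed, and the sporulation markers at 37.2 to 89.2 and 40.1 CPM, with 1 of 5 never listed.

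**Figure D1:**
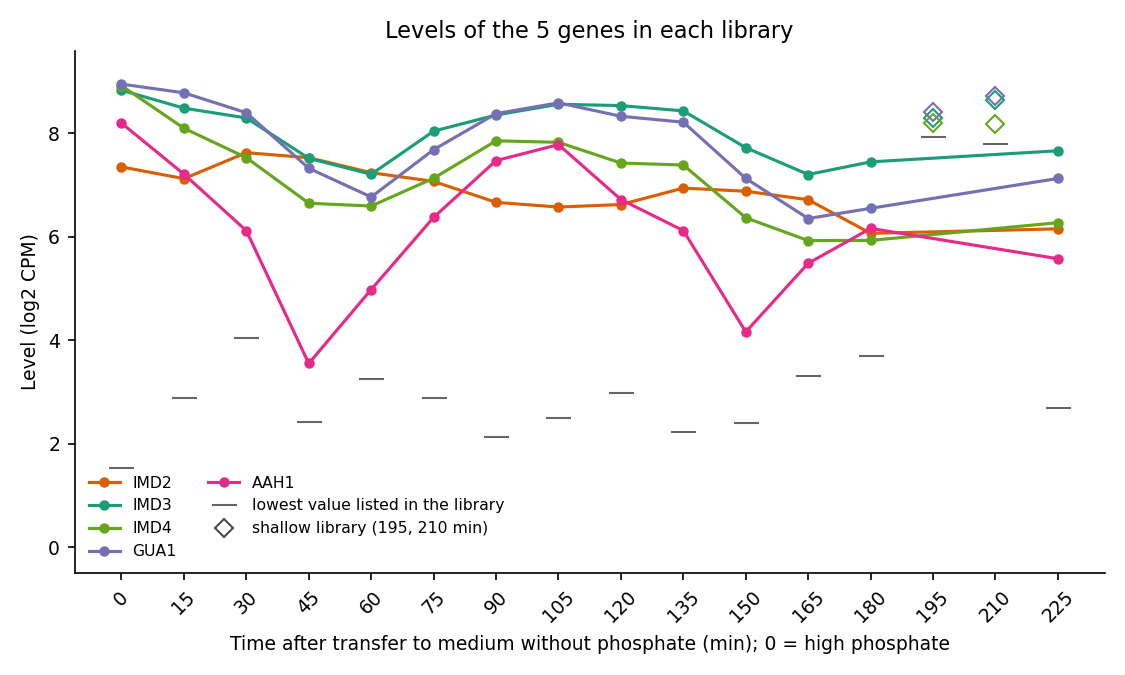
Level of each of the 5 genes (log2 CPM, vertical axis) in each library by time (min, horizontal axis); each point is 1 library, diamonds are the shallow libraries at 195 and 210 min and grey dashes the lowest value each library lists. AAH1 reaches 3.55 at 45 min and 4.16 at 150 min, and IMD2 lies between 6.07 and 7.63 throughout.

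GUA1 and the IMP dehydrogenase genes of ordinary growth, IMD3 and IMD4, were low in 2 spells, around 60 and around 165 min, and high between them. GUA1, the GMP synthase, stood at 8.95 log2 CPM at 0 min, then at 8.79, 8.40, 7.33, 6.77 and 7.69 from 15 to 75 min, at 8.38, 8.59, 8.33 and 8.22 from 90 to 135 min, and at 7.13, 6.36, 6.55 and 7.13 at 150, 165, 180 and 225 min. It was low at 60 min, came back near the 15 min level at 105 min, and was lowest at 165 and 180 min. In bulk RNA, fewer cells that make a transcript and less of it per cell cannot be told apart.

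IMD3 followed the same times over a smaller range. It stood at 8.84 log2 CPM at 0 min, at 8.49, 8.30, 7.52, 7.21 and 8.05 from 15 to 75 min, at 8.36, 8.57, 8.54 and 8.44 from 90 to 135 min, and at 7.73, 7.21, 7.45 and 7.67 at 150, 165, 180 and 225 min. The libraries of 60 and 165 min were the lowest, at 7.21 each. IMD4 stood at 8.92 at 0 min, at 8.10, 7.53, 6.65, 6.60 and 7.14 from 15 to 75 min, at 7.86, 7.83, 7.43 and 7.39 from 90 to 135 min, and at 6.37, 5.93, 5.93 and 6.28 at 150, 165, 180 and 225 min. IMD4 came back less far than IMD3 or GUA1, and its late values were its lowest. Across the 14 deeper libraries the highest level was 3.10 times the lowest in IMD3, 6.06 times in GUA1 and 7.97 times in IMD4.

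AAH1, the adenine deaminase gene, had the widest range of the 5, at 25.1-fold. It stood at 8.20 log2 CPM at 0 min, at 7.21, 6.12, 3.55, 4.98 and 6.38 from 15 to 75 min, at 7.48, 7.79, 6.72 and 6.12 from 90 to 135 min, and at 4.16, 5.49, 6.16 and 5.58 at 150, 165, 180 and 225 min. The 2 lows were at 45 and 150 min, each in the library before the lowest values of IMD3 and GUA1. The 95% Poisson intervals of GUA1 at 165 and 180 min overlap, at 65.1 to 102 and 73.5 to 118 CPM. Its late low is thus not placed to 1 library. IMD4 was at 6.65 and 6.60 at 45 and 60 min and at 5.93 at both 165 and 180 min. The lows of IMD4 are not placed to 1 library either. At 45 min the level was 11.7 CPM, from 22 reads (95% Poisson interval 7.36 to 17.8 CPM, for counting error only and with the lowest value at 10 reads), against 294 CPM from 1011 reads at 0 min (276 to 313 CPM). At 150 min it was 17.9 CPM from 34 reads (12.4 to 25.0 CPM), against 221 CPM from 390 reads at 105 min (199 to 244 CPM). The lows rest on few reads. Their intervals do not reach those of any neighbouring library: 60 min has 21.8 to 44.4 CPM, and 165 min 32.8 to 60.1 CPM. These libraries are single and were picked as the lowest, so the intervals are no test of the lows.

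IMD2 had none of the early low. It stood at 7.35 log2 CPM at 0 min, at 7.13, 7.63, 7.53, 7.24 and 7.07 from 15 to 75 min, at 6.67, 6.58, 6.63 and 6.94 from 90 to 135 min, and at 6.88, 6.72, 6.07 and 6.16 at 150, 165, 180 and 225 min. Its highest values were at 30 and 45 min, where each of the other 4 genes lay under its 15 min value, and its lowest at 180 and 225 min. Its highest level was 2.95 times its lowest.

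The shallow libraries show GUA1 at 8.42 and 8.72 log2 CPM at 195 and 210 min, IMD3 at 8.29 and 8.64 and IMD4 at 8.19 and 8.17. These lie far above their values at 180 and 225 min, but the lowest values listed at 195 and 210 min are 7.93 and 7.80 log2 CPM. Any listed value thus had to lie above those of these genes at 180 and 225 min. In the shallow libraries they rest on 12 to 19 reads, with the lowest value at 10 reads. IMD2 and AAH1 were not listed there, which says only that they were under 244 and 222 CPM. Whether the shallow libraries' levels come from the cells or from their low depth was not tested.

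In the mean of 15, 30, 45 and 60 min against 0 min, 3 of the 5 genes (AAH1, IMD4 and GUA1) were at least 2-fold lower; 8.54% of all genes with values were. Against 0 min, 4 of the 5 genes were at least 2-fold lower in the mean of 45, 60 and 75 min; 9.76% of all genes with values were. The mean log2 ratio was -3.23 ± 1.41 in AAH1, -2.13 ± 0.30 in IMD4, -1.69 ± 0.46 in GUA1, -1.24 ± 0.42 in IMD3 and -0.07 ± 0.23 in IMD2 (SD over the 3 neighbouring libraries, which are not replicates). In the mean of 90, 105 and 120 min only IMD4 was at least 2-fold lower, at -1.22 ± 0.24, against 1.98% of all genes. IMD2 was at -0.73 ± 0.05 there, below IMD3 at -0.35 ± 0.11 and GUA1 at -0.52 ± 0.14, and AAH1 was at -0.87 ± 0.55.

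In the mean of 150, 165 and 180 min again 4 of the 5 genes were at least 2-fold lower, and 11.8% of all genes were. AAH1 was at -2.93 ± 1.02, IMD4 at -2.85 ± 0.25, GUA1 at -2.27 ± 0.40, IMD3 at -1.38 ± 0.26 and IMD2 at -0.80 ± 0.43. In the mean of 180 and 225 min all 5 were, with IMD2 at -1.24 and IMD3 at -1.28, and 11.1% of all genes were. The median of the 5 was -2.11 in that mean, and -1.25 with the shallow libraries added, which put IMD3 at -0.82, so that 4 of the 5 were at least 2-fold lower. IMD2 and AAH1 have no value in the shallow libraries, so their ratios still rest on 180 and 225 min alone. These shares of all genes stand beside the counts for scale only, since the genes were chosen with their ratios known. The 0 min library is single, and its median gene, at 5.97 log2 CPM, lay under the 6.22 to 6.41 of the starved libraries. Scaling libraries by their median gene lowered the ratios by that difference: IMD2 was then at -0.40 in 45 to 75 min and at -0.25 in 15 to 60 min, where it is at 0.03 without that scaling, so its sign in the first hour depends on the scaling. The counts depend on it too: after it, 4 of the 5 genes were at least 2-fold lower in 15 to 60 min, with IMD3 at -1.23, 3 in 90 to 120 min, with AAH1 at -1.17 and IMD2 at -1.03, and all 5 in 150 to 180 min, with IMD2 at -1.14.

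**Figure D2:**
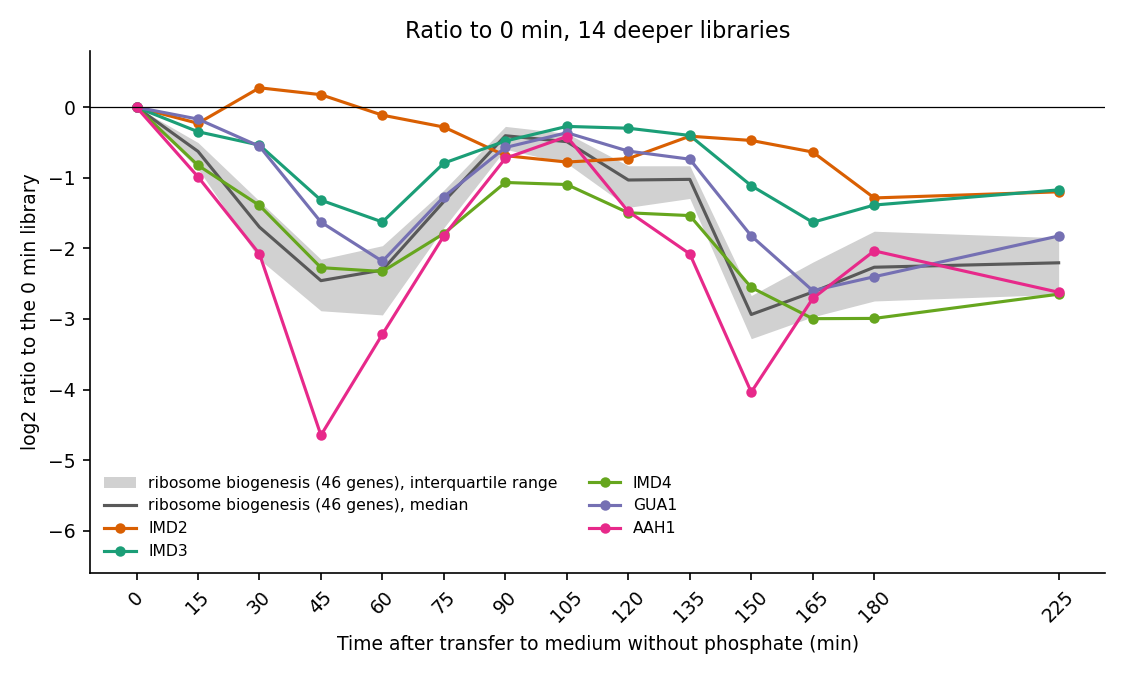
Log2 ratio of each gene to the 0 min library (vertical axis) by time (min) in the 14 deeper libraries, 1 point per library, with the median and interquartile range of 46 ribosome biogenesis genes in grey. AAH1 dips to -4.65 at 45 min and -4.04 at 150 min, under the grey band, and IMD2 stays above the band in the first hour.

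Genes of ribosome production were, like 4 of the 5 genes, lower in the windows around 60 and 165 min than in the window between them. The median log2 ratio to 0 min was -2.05 in 45 to 75 min, -0.63 in 90 to 120 min and -2.58 in 150 to 180 min over listed ribosome biogenesis genes, and -2.18, -0.62 and -2.80 over RNA polymerase I subunits. Over ribosomal protein genes it was -1.96, -0.91 and -2.74, and over all genes 0.36, 0.25 and 0.39. Among 46 ribosome biogenesis genes listed in all deeper libraries, the lowest value from 15 to 90 min was at 45 min in 26 and at 60 min in 17, and that from 120 to 225 min was at 150 min in 30 and at 165 min in 13. Ribosomal protein genes were lowest later, 90 of 137 at 75 min and 115 of 137 at 225 min, with median ratios of -2.27 and -3.51 there. Of all 4495 genes listed in these libraries, 15.2% were lowest at 45 min and 15.5% at 60 min, and 16.9% at 150 min and 14.6% at 165 min. In the same spans AAH1 was lowest at 45 and 150 min, IMD3, IMD4 and GUA1 at 60 and 165 min, and IMD2 at 90 and 180 min. For IMD4 and GUA1 the late low is not placed to 1 library, as given above. The split at these times was chosen after the values were seen.

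The mean profile of the 5 genes was set against 4490 genes listed in all 14 deeper libraries, as Pearson's r of log2 values, a description over libraries that follow each other in time. The most alike were RPG1, a subunit of translation initiation factor eIF3, at 0.988, GAR1, of the H/ACA small nucleolar ribonucleoproteins, at 0.988, and MIS1, the mitochondrial C1-tetrahydrofolate synthase, at 0.986. Next came RPA135, a large subunit of RNA polymerase I, and NOP7, of the large ribosomal subunit's assembly, both at 0.982, the ribosomal protein gene RPS7B, which has a near-identical copy, at 0.981, and UTP10 and UTP7, of the small subunit processome, at 0.979 and 0.977. AAH1 weighs most in this mean profile, with an SD of 1.33 over these libraries against 0.47 to 0.89 in the others. The median r was 0.92 over ribosome biogenesis genes, 0.93 over RNA polymerase I subunits and 0.85 over ribosomal protein genes (-0.04 to 0.98). It was 0.31 over the 40 other purine genes and -0.27 over all genes. By the same measure for each gene alone, AAH1 was most like RPC82, a subunit of RNA polymerase III, at 0.973, and FCF2, of small subunit assembly, at 0.969. GUA1 was most like YDR341C, the arginyl-tRNA synthetase gene, at 0.990, and FPR4 at 0.986; IMD4 was most like RPG1 at 0.981 and FPR4 at 0.979; and IMD3 was most like NUG1, a GTPase of large subunit assembly, at 0.977, and NOP7 at 0.976. IMD2 went with other genes, XPT1, the xanthine phosphoribosyltransferase gene, at 0.909 and CHO2, of phosphatidylcholine synthesis, at 0.905.

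Among themselves, GUA1, IMD3 and IMD4 ran together. Pearson's r over the 14 deeper libraries was 0.97 between IMD3 and GUA1, 0.96 between IMD4 and GUA1 and 0.91 between IMD3 and IMD4. AAH1 was at 0.78 with IMD3, 0.76 with IMD4 and 0.72 with GUA1. IMD2 was at 0.42 with IMD4, 0.34 with GUA1, 0.18 with IMD3 and -0.16 with AAH1. All levels in a library share its depth and scaling. IMD3 and IMD4 also share sequence, so their r depends in part on read assignment.

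IMD2 made up more of the IMP dehydrogenase transcripts at 45, 60 and 165 min, with IMD3 and IMD4 low, than in other deeper libraries. At 180 and 225 min IMD3 and IMD4 were low as well, but IMD2, then at its own lowest, made up 22.1 and 20.3%. IMD2 can also gain in share when only IMD3 and IMD4 fall. As a percent of the summed CPM of IMD2, IMD3 and IMD4, it made up 14.8% at 0 min, 18.1, 28.4, 39.4, 38.2 and 25.0% from 15 to 75 min, 15.4, 13.6, 15.4 and 19.3% from 90 to 135 min, and 28.6, 33.6, 22.1 and 20.3% at 150, 165, 180 and 225 min. The share was highest at 45 and 60 min, where IMD2 and IMD3 stood at almost the same level, with IMD2 above IMD3 by 0.01 and 0.03 on the log2 scale, against 1.48 below it at 0 min. IMD4 had the largest share of the 3 at 0 min, 43.9%, and its lowest, 19.4%, at 165 min. The sum of the 3 was 303 CPM at 180 min, its lowest, against 1107 CPM at 0 min. IMD2 and IMD3 share sequence outside the coding stretch shown above. Of the 50-base windows of IMD2, 8.01% occur in IMD3 and 29.1% in the region of the IMD1 pseudogene. The split between IMD2 and IMD3 thus depends on read assignment. So does that between IMD3 and IMD4, as 7.01% of the IMD4 windows occur in IMD3. Recovered read numbers were whole, within 0.01 reads, in 3 of 14 libraries for IMD2 and in none of 16 for IMD3. They were whole in 8 of 16 for IMD4, in all 16 for GUA1 and in all 14 for AAH1.

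**Figure D3:**
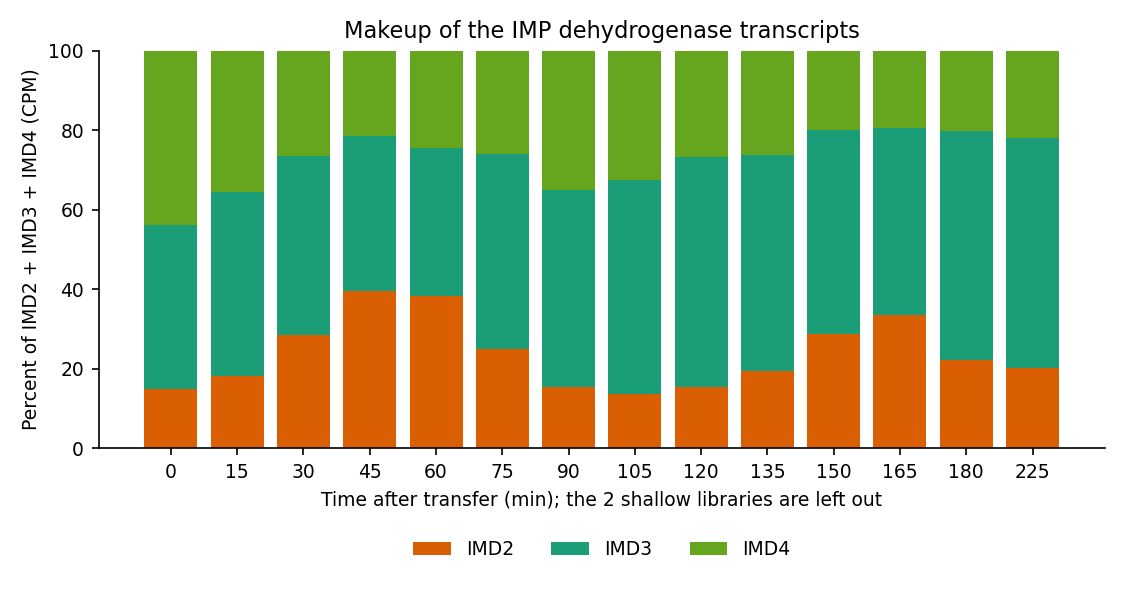
Share of IMD2, IMD3 and IMD4 in their summed CPM (percent, vertical axis) in each of the 14 deeper libraries by time (min); bars stack to the whole. The IMD2 share is 39.4% at 45 min and 13.6% at 105 min.

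Per length, in CPM per kb of coding sequence, the order of the 5 genes changed over time. At 0 min it was GUA1 at 314, IMD4 at 309, IMD3 at 291, AAH1 at 282 and IMD2 at 104. At 45 min IMD2 led at 118, followed by IMD3 at 117, GUA1 at 102, IMD4 at 63.8 and AAH1 at 11.2. At 105 min it was GUA1 at 245, IMD3 at 241, AAH1 at 211, IMD4 at 144 and IMD2 at 60.8, and at 225 min IMD3 at 129, GUA1 at 88.8, IMD4 at 49.2, AAH1 at 45.8 and IMD2 at 45.4. Neighbours in these orders, such as GUA1 and IMD4 at 0 min, have no replicate spread to set their difference against.

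Other purine genes had ratios of both signs in the first hour. In the mean of 15 to 60 min against 0 min, 9 of the 40 measured were at least 2-fold higher and 3 at least 2-fold lower; among all genes 16.1% and 8.54% were. These ratios rest on the single 0 min library and have no test. The nucleotidase genes were all 3 higher, PHM8 by 4.27 ± 0.95 and ISN1 by 1.75 ± 0.42 on the log2 scale (SD over 4 libraries). GUD1, the guanine deaminase, was at 1.95 ± 0.37, ADE17 at 1.75 ± 0.51, YNK1 at 1.15 ± 0.64 and ADE12 at 1.14 ± 0.19, whereas BAS1 was at -1.94 ± 0.44 and PRS1 at -1.10 ± 0.61. GUK1 was at -0.50 ± 0.11. Over the same libraries GUA1 was at -1.13 ± 0.93 and IMD4 at -1.70 ± 0.73. IMD2, which like IMD4 takes IMP into the guanine branch, was at 0.03 ± 0.24.

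To place the 5 genes among other purine genes, windows of 3 neighbouring libraries were compared with limma's moderated test over 4804 genes listed in all 9 libraries, with Benjamini-Hochberg adjustment. Neighbouring libraries stand in for replicates, so each p measures their scatter in what the labels describe as 1 time course. The 5 genes get a difference and SE without a p. From 90 to 120 min against 45 to 75 min, the log2 difference was 2.36 ± 0.58 in AAH1, 1.17 ± 0.24 in GUA1, 0.91 ± 0.21 in IMD4, 0.90 ± 0.21 in IMD3 and -0.66 ± 0.22 in IMD2 (SE). The value of AAH1 was the highest of the 4804 genes, with the widest SE of the 5. AAH1 was chosen with its values known, so this rank is a description only. The log2 difference uses the 45 min level of AAH1, which rests on 22 reads. From 150 to 180 min against 90 to 120 min, it was -2.05 ± 0.58 in AAH1, -1.76 ± 0.24 in GUA1, -1.63 ± 0.21 in IMD4, -1.03 ± 0.21 in IMD3 and -0.07 ± 0.22 in IMD2. From 150 to 180 min against 45 to 75 min, AAH1 was 0.30 ± 0.58, IMD3 -0.13 ± 0.21, GUA1 -0.58 ± 0.24, IMD4 -0.72 ± 0.21 and IMD2 -0.73 ± 0.22. With the shallow libraries added to the last window, this last difference was 0.27 in IMD3, 0.17 in GUA1 and 0.13 in IMD4, so its sign there rests on leaving them out. The difference of 150 to 180 against 90 to 120 min was then -1.0 in GUA1, -0.79 in IMD4 and -0.62 in IMD3. In 150 to 180 against 45 to 75 min, AAH1 was at -0.41 without the 45 min library and at -0.14 without that of 180 min, and IMD3 at 0.10 without that of 75 min; the IMD2 difference of 150 to 180 against 90 to 120 min was 0.18 without 180 min. The median of the 5 was 0.91, -1.63 and -0.58 in these comparisons, and that of all genes -0.08, 0.11 and 0.01.

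Of 45 other purine genes on the lists used, 42 had a value in some library and 40 were tested. In 90 to 120 min against 45 to 75 min, 6 of them rose and 2 fell, while 7.79% of all genes rose and 9.58% fell. Of 5 PRPP synthetase subunit genes, which make the activated ribose used in purine synthesis and salvage, 3 rose: PRS3 by 1.00 ± 0.17 on the log2 scale (adjusted p = 0.00228), PRS1 by 0.95 ± 0.22 (adjusted p = 0.00958) and PRS5 by 0.62 ± 0.17 (adjusted p = 0.0218). The other 3 that rose belong to salvage: APT1, the adenine phosphoribosyltransferase, by 1.01 ± 0.17 (adjusted p = 0.00197), MEU1, the methylthioadenosine phosphorylase, by 0.95 ± 0.30 (adjusted p = 0.0438) and HPT1, which makes IMP and GMP from hypoxanthine and guanine, by 0.76 ± 0.21 (adjusted p = 0.0256). YNK1, the nucleoside diphosphate kinase, and ISN1, the IMP nucleotidase, fell, at -0.56 ± 0.18 (adjusted p = 0.0438) and -0.55 ± 0.17 (adjusted p = 0.0357). PRS3 and APT1 passed without any single library, at adjusted p up to 0.0236 each. The other 6 calls were lost without at least 1 library, PRS1 without 45 or 105 min (up to 0.0611), HPT1 up to 0.117, PRS5 up to 0.107, MEU1 up to 0.191, YNK1 up to 0.200 and ISN1 up to 0.168. The number that rose was 2 without 45 or 105 min and 3 without 60 or 90 min; the number that fell was 0 without 60, 75, 105 or 165 min, 1 without 120 or 180 min and 6 without 150 min. The numbers for all genes, 374 and 460, moved as well, to 211 and 256 without 45 min, 144 and 199 without 60 min, 242 and 368 without 90 min and 124 and 167 without 105 min. With the shallow libraries in the fit none of the 8 passed, APT1 being at 0.101 and PRS3 at 0.0868.

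In 150 to 180 min against 90 to 120 min, 5 of the 40 rose and 11 fell, while 17.2% of all genes rose and 13.9% fell. All 5 PRPP synthetase genes fell, PRS1 most, at -1.27 ± 0.22 (adjusted p = 0.000585), then PRS4 at -0.99 ± 0.23, PRS3 at -0.90 ± 0.17, PRS5 at -0.68 ± 0.17 and PRS2 at -0.58 ± 0.19 (adjusted p of 0.00469, 0.00115, 0.00715 and 0.0294, in the same order). Of 9 salvage genes 3 fell, APT1 at -1.13 ± 0.17 (adjusted p = 0.000184), MEU1 at -1.10 ± 0.30 (adjusted p = 0.0120) and HPT1 at -0.63 ± 0.21 (adjusted p = 0.0362), and GUD1, the guanine deaminase, rose by 1.08 ± 0.31 (adjusted p = 0.0146). BAS1, the activator of purine synthesis genes, at -1.37 ± 0.43, FCY21, a relative of the purine-cytosine permease, at -1.20 ± 0.36, and ADE6, of IMP synthesis, at -0.46 ± 0.16 were the others that fell (adjusted p of 0.0236, 0.0199 and 0.0441). PHM8, a phosphate-starvation nucleotidase, rose by 1.45 ± 0.22 (adjusted p = 0.000196), YNK1 by 0.88 ± 0.18 (adjusted p = 0.00172), ADE17, of IMP synthesis, by 0.79 ± 0.23 (adjusted p = 0.0176) and ISN1 by 0.53 ± 0.17 (adjusted p = 0.0261).

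Of these 16 calls, 7 held without any single library, at adjusted p up to 0.0313: those of PRS1, PRS3, PRS4, PRS5, APT1, PHM8 and YNK1. The other 9 were lost without at least 1, MEU1 without 105 min alone (0.0653), and the others at up to 0.198 (ADE6), 0.124 (PRS2), 0.122 (HPT1), 0.0999 (ISN1), 0.0992 (BAS1), 0.0953 (FCY21), 0.0890 (ADE17) and 0.0682 (GUD1). The number that fell was 6 without 90 or 165 min and 5 without 105 min, and the number that rose 2 without 105 min and 3 without 120 or 165 min. Of all genes 531 rose without 105 min, against 826 with it. With the shallow libraries added to the last window, APT1 was at 0.116, PRS1 at 0.270 and PHM8 at 0.0560 (adjusted p), while YNK1 and PRS4 passed, at 0.0147 and 0.0151. GUK1, the guanylate kinase that follows GUA1 in the route, was at 0.27 ± 0.14 in 90 to 120 against 45 to 75 min and at -0.23 ± 0.14 in 150 to 180 against 90 to 120 min (adjusted p = 0.232 and 0.244). ADE12, the first enzyme of the AMP branch, was at -0.29 ± 0.17 and 0.26 ± 0.17 (adjusted p = 0.273 and 0.270).

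In 150 to 180 min against 45 to 75 min, PHM8 alone among the 40 passed, higher by 0.96 ± 0.22 (adjusted p = 0.0343), while 1.29% of all genes rose and 0.833% fell. This call was lost without any of 45, 60, 75, 105, 165 or 180 min, at adjusted p up to 0.185, and without 150 min 2 genes rose and 1 fell. The shares of all genes are as unsteady: 62 rose and 40 fell with every library, 300 and 268 without 150 min, 5 and 2 without 165 min, and 25 to 47 and 10 to 25 without 45, 60, 75, 105 or 180 min. Over these comparisons the ribosome biogenesis list gave 42 of 46 genes higher in 90 to 120 min against 45 to 75 min and 46 of 46 lower in 150 to 180 min against 90 to 120 min, with medians of 1.36 and -1.90. The 2 tested genes of the AMP branch and the 2 that use GTP for flavin and folate synthesis passed in none of the comparisons.

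**Figure D4:**
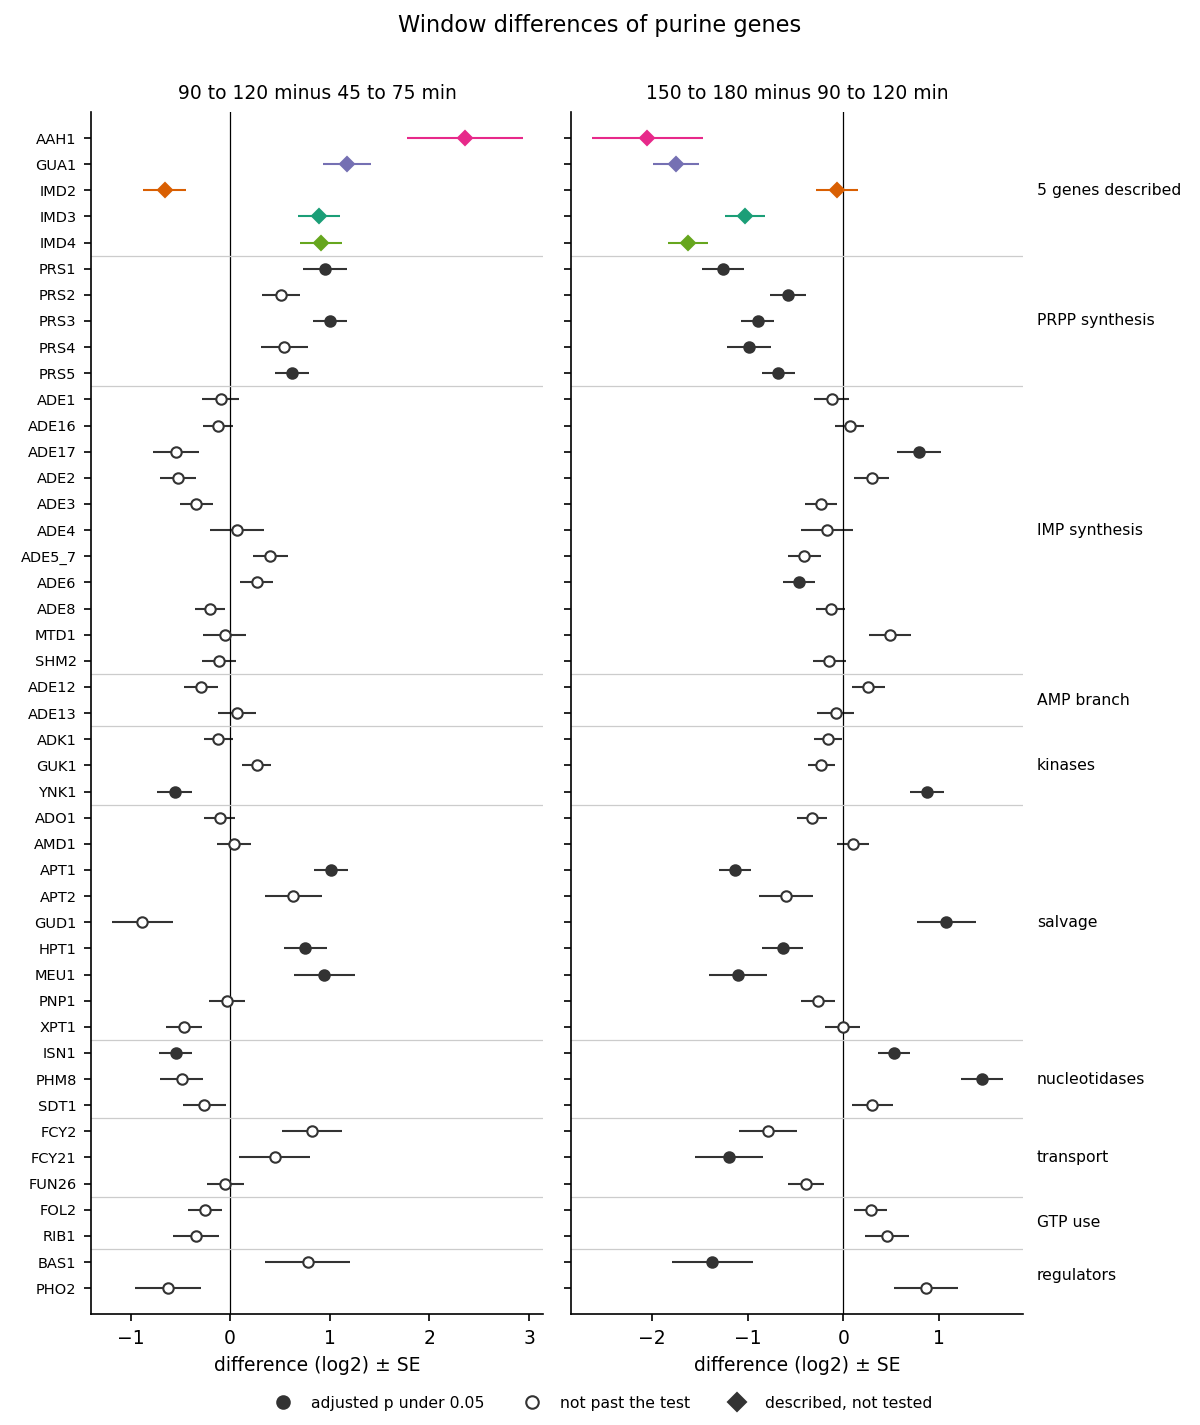
Log2 difference ± SE (horizontal axis) between windows of 3 libraries for the 5 genes (coloured diamonds, described without a test) and 40 other purine genes by role; filled circles passed an adjusted p of 0.05. AAH1 is at 2.36 in the left panel and -2.05 in the right one, and all 5 PRS genes lie under 0 on the right.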

How the data were processed

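RNA was sequenced from 16 libraries, 1 per time, on an Illumina HiSeq instrument, per the labels' protocols; Bowtie and build R64 are named in the submitters' processing notes, and the aligner's version, the counter and the handling of multiply mapped reads are not given in the sources used here. The authors deposited log2 values: raised back, each library sums to 1000000, so they are log2 CPM. They are levels, not ratios to the first library as the series text has it, so each ratio to 0 min was computed here as a difference of log2 values. Genes under a library's lowest value have none. A lowest value of 10 reads was assumed; 94.6% to 97.5% of values under 100 reads in the 14 deeper libraries are then whole within 0.01 reads. No pseudocount was used. Coding identity, 50-base windows and motifs came from the R64 genome.

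Windows were fitted with limma 3.58.1 in R 4.3.3 (eBayes with a mean-variance trend, two-sided, call at adjusted p under 0.05) over 9 libraries, without a covariate. Log2 values were also simulated for 4804 genes, as independent normal draws with the real gene means and with spreads shuffled between genes. In the comparison of 90 to 120 with 45 to 75 min, 61% of changes of 1 (log2) and 96% of changes of 2 were recovered. The draws have no tie of spread to level and no drift in time, so these shares need not hold for the real libraries. Named are the 5 genes, purine genes that pass a comparison (at most 4 a list, plus HPT1, GUK1, ADE12 and PHM8), the genes most like the mean profile, and VTC1; PRS2 was named besides, after its value was seen. The genes and lists were chosen with earlier results of these data known.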

Additional observations from a re-analysis of the deposited data

How the results depend on the processing

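Depth limits the lows of AAH1, which rest on few reads, and makes the libraries of 195 and 210 min silent on IMD2 and AAH1. The read assignment limits IMD2 against IMD3 and IMD3 against IMD4. Of 385 values of the 5 genes recomputed under the alternatives, 346 moved by less than a yardstick and 39 moved further. The yardstick was the SD over neighbouring libraries for ratios and the SE of the fit for differences. The 346 include values that could not move. Dropping the variance trend or also requiring a difference of at least 1 leaves all 15 differences as they were. A common slope within windows, or at least 2 values per window, does so too. Leaving out a library likewise leaves any difference that does not use it. Among the 385, 12 changed sign. Of these 12, 5 are IMD2 ratios to 0 min in 15 to 60 or 45 to 75 min, between -0.25 and 0.03, where the values given are 0.03 and -0.07. The IMD2 difference of 150 to 180 against 90 to 120 min was 0.18 without 180 min. In 150 to 180 against 45 to 75 min, IMD3 was 0.10 without 75 min and AAH1 -0.41 without 45 min and -0.14 without 180 min, and IMD3, IMD4 and GUA1 were 0.27, 0.13 and 0.17 with 195 and 210 min added. The median ratio of the 5 genes to 0 min in 90 to 120 min, -0.73, was -1.03 with libraries centred on the median gene and -0.91 with quantile normalization, and ranged from -0.75 to -0.57 when each library was left out. In 180 and 225 min it was -2.11, -2.53 when centred and -2.04 or -1.82 when one was left out. It was -1.25 with 195 and 210 min added for IMD3, IMD4 and GUA1, which alone are listed there. Of other purine genes, 1 fell in 90 to 120 against 45 to 75 min after centring or without a variance trend, and 0 with wider windows. With a difference of at least 1 also required, 1 rose and 0 fell there, 2 rose and 5 fell in 150 to 180 against 90 to 120 min, and 0 rose in 150 to 180 against 45 to 75 min, where 0 rose without a variance trend and 3 fell with wider windows. With 195 and 210 min added to the last window, an alternative chosen after seeing the data, 0 rose and 0 fell, 2 rose and 3 fell, and 0 rose in these comparisons. Leaving out each library gave 2 to 8 risers and 0 to 6 fallers, 2 to 5 and 5 to 12, and 0 to 2 and 0 to 1. Centring turned the split of all genes in 90 to 120 against 45 to 75 min from 374 higher and 460 lower into 407 and 387, and that in 150 to 180 against 90 to 120 min from 826 and 668 into 744 and 745. Of the 8 genes most like the mean profile, 4 were shared with Spearman's rho and 5 without 0 min. The causes were not tested. No paired analysis was possible because each time has a single library.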
